A study of Mus musculus with 2 samples.

Results

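Skeletal muscle phosphorylates glucose through hexokinases and carries several enzymes of the reverse, gluconeogenic direction, and the transcripts of 9 such genes were followed here in muscle that overexpresses the transcription factor FOXO1. They were the hexokinase genes Hk1, Hk2 and Hk3, the phosphoenolpyruvate carboxykinase genes Pck1 (cytosolic enzyme) and Pck2 (mitochondrial enzyme), the fructose bisphosphatase genes Fbp1 and Fbp2, the glucose 6-phosphatase gene G6pc3 and the pyruvate carboxylase gene Pcx. The genes were chosen by name and function, and every probe whose transcript belongs to them was taken. All 9 were found among 21368 named genes on the array, of which 16659 were detected on at least 1 array, where detected means that at least 50% of a probe's spots were well above background. The 9 genes had 11 probes in all: 7 genes had 1 probe, and Hk1 and G6pc3 had 2 probes each.

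RNA came from gastrocnemius muscle of male FOXO1-Tg mice, a transgenic line with FOXO1 overexpressed in skeletal muscle, and of male wild-type control mice, all aged 25 weeks. RNA of 5 FOXO1-Tg mice and of 6 wild-type mice was pooled before labeling, and each pool was hybridized to 1 Agilent whole mouse genome array with a single dye. The promoter that drives the transgene is not given in the sources used here. With 1 array a group there was no replicate and no test across samples, differences between mice could not be seen, and the errors given are the scanner's own. A log2 ratio is FOXO1-Tg over wild-type, taken after each array was divided by the 75th percentile of its signals, and a gene was called when it was past 2-fold.

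In liver and kidney, gluconeogenesis makes glucose from lactate, glycerol and amino acids. Pyruvate carboxylase and phosphoenolpyruvate carboxykinase bypass pyruvate kinase, fructose bisphosphatase bypasses phosphofructokinase, and glucose 6-phosphatase bypasses hexokinase. Muscle lacks most of the liver-type glucose 6-phosphatase, so glucose taken up by a fiber is trapped once hexokinase, mainly the insulin-responsive hexokinase 2 encoded by Hk2, has phosphorylated it. FOXO1 is known in liver as an insulin-restrained activator of gluconeogenic genes, Pck1 among them.

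The 3 promoters below belong to the genes with the largest ratios in size among the 9. Each line gives 300 bases from RefSeq, build GRCm38.p6, from 250 bases before to 50 bases after the annotated start of the gene, read 5′ to 3′ on the strand of the gene. Capitals mark every match to the letters searched.
Pck1, chr2:173152823-173153122, plus strand: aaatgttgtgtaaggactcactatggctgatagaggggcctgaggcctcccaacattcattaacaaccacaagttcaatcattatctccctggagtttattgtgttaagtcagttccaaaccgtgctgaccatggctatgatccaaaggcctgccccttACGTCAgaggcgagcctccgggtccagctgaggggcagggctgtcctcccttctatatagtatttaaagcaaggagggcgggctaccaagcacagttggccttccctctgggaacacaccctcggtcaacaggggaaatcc
Hk2, chr6:82774405-82774704, minus strand: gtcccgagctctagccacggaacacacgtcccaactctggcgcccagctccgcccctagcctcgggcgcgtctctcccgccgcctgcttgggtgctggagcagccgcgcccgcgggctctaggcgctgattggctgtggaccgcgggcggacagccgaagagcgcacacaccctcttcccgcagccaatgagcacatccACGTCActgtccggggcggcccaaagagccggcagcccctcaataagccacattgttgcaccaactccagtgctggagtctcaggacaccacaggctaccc
Fbp2, chr13:62858351-62858650, minus strand: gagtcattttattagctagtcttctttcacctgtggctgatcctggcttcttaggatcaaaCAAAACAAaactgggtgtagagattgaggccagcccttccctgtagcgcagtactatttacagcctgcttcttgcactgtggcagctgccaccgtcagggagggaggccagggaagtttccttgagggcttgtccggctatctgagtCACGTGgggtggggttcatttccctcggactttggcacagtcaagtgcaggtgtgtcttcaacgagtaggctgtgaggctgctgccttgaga

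The letters searched on both strands were those of FOXO motifs (TTGTTTAC, TTATTTAC, TTGTTTTG, TTATTTTG and the core TGTTTAC, which lies inside the first), of the cAMP response element bound by CREB (TGACGTCA and its part ACGTCA), and TATAAA, GGGGCGGGG and CACGTG. All 9 genes had an entry in the RefSeq table, with 11 windows, since Hk1 and Pcx had 2 starts each. ACGTCA stood in the Pck1 window at bases -91 to -86 from the start and in the Hk2 window at -51 to -46, and 7.51% of 32851 promoter windows held it on either strand. TTGTTTTG stood on the reverse strand of the Fbp2 window at -189 to -182, where the printed strand reads CAAAACAA, and on the forward strand of the Pck2 window at -160 to -153. Of all windows, 2.51% held these letters. CACGTG stood in the windows of Fbp2, at -42 to -37, of G6pc3, at -99 to -94 and -79 to -74, and in 1 of the 2 Pcx windows, at -248 to -243, against 7.15% of all windows. The other letters of FOXO motifs, held by 1.23% (TTGTTTAC), 1.12% (TTATTTAC), 1.66% (TTATTTTG) and 3.65% (TGTTTAC) of windows, were in no window of the 9 genes, nor were TGACGTCA (1.79%), TATAAA (13.6%) and GGGGCGGGG (11.4%). These are matches of letters within 300 bases and no measurement of binding.

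Pck1 was higher in the FOXO1-Tg pool, Fbp2 was lower past 2-fold, Hk2 was lower and just short of 2-fold, and the other 6 genes were within 2-fold. Of all 16659 detected genes, 4.21% passed 2-fold as higher in the FOXO1-Tg pool and 3.85% as lower, against 1 higher and 1 lower of the 9 genes. Over the 8 genes detected on both arrays, the median log2 ratio was -0.17, with 3 ratios above 0 and 5 below 0. For comparison, the 15492 genes that both arrays detected had a median of -0.07, with quartiles of -0.29 and 0.19 and 58.3% of ratios below 0. Of the 8 genes, 3 had a ratio smaller than its scanner error and 3 had a ratio larger than 2 scanner errors. The split of all calls moved with the scaling: 52.2% of called genes were higher with the 75th percentile, against 62.2% to 68.2% with other scalings. In whole-muscle RNA, fewer cells of a type and less RNA per cell cannot be told apart.

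**Figure D1:**
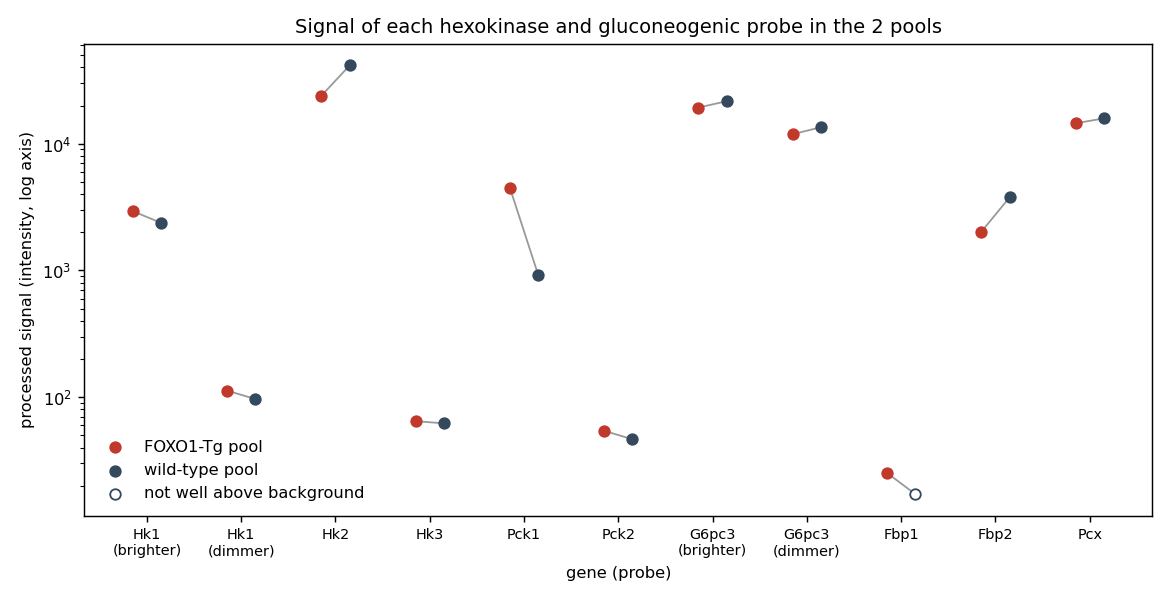
Processed signal (intensity, log axis) of each of the 11 probes in the FOXO1-Tg pool (left point of a pair) and the wild-type pool (right point), with 1 array a pool; the open point marks a probe that was not well above background. Pck1 is the pair that falls most steeply from left to right, with 4479 in the FOXO1-Tg pool and 922 in the wild-type pool, while the pairs of Hk2 and Fbp2 climb.

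The arrays were alike in quality. Signals well above background made up 65.8% of spots in the FOXO1-Tg pool and 65.5% in the wild-type pool, no spot was saturated, and the 75th percentiles were 844 in FOXO1-Tg and 771 in wild-type. The brighter Foxo1 probe, which checks the labels, read 279457 in the FOXO1-Tg pool and 4540 in the wild-type pool, and a second Foxo1 probe had 3188 in FOXO1-Tg and 2853 in wild-type.

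Among the hexokinases, Hk2 was the gene that differed. Its probe read 23854 in the FOXO1-Tg pool and 41438 in the wild-type pool. The log2 ratio was -0.93 with a scanner error of 0.20, or 1.90-fold lower, and 479 of the 15492 genes had a lower ratio. Over the 12 settings of scaling, filter and probe choice the ratio lay between -0.93 and -0.80, within 2-fold in each.

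Hk1 encodes the widely expressed hexokinase 1. The brighter of its probes read 2931 in the FOXO1-Tg pool and 2372 in the wild-type pool, a log2 ratio of 0.18 with an error of 0.20. The dimmer probe had 112 in FOXO1-Tg and 96.6 in wild-type, a log2 ratio of 0.09 with an error of 0.22. Both Hk1 ratios were smaller than their errors, and they differed by 0.08, where genes with several probes had a median range of 0.17.

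Hk3, the hexokinase of white blood cells, had 64.5 in the FOXO1-Tg pool and 62.1 in the wild-type pool, 4.08 times the local background in FOXO1-Tg and 3.96 times in wild-type. Its log2 ratio of -0.08 (error 0.24) was within the error and lay near the middle of all genes, with 7871 genes higher and 7620 lower. The sign depended on the scaling. The 6 of 12 settings that scale to the 75th percentile all gave the same -0.08. The others gave values above 0, from 0.02 to 0.11. The ratio of FOXO1-Tg over wild-type was 2.15 times as large for Hk1 as for Hk2 (error 0.29 on the log2 scale), and 1.19 times as large for Hk1 as for Hk3 (error 0.32).

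The carboxykinases parted. Pck1 encodes the cytosolic enzyme that turns oxaloacetate into phosphoenolpyruvate, abundant in liver, kidney and fat, where it also serves the making of glycerol for triglycerides. Its probe read 4479 in the FOXO1-Tg pool and 922 in the wild-type pool, 152 times the local background in FOXO1-Tg and 32.2 times in wild-type. The log2 ratio was 2.15 with an error of 0.20, or 4.44-fold higher, and 88 of the 15492 genes had a higher ratio. Across all settings it lay between 2.07 and 2.28.

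The Pck2 probe, for the mitochondrial enzyme, was spotted 10 times on each array, so it is the one probe among the 11 with a spread of its own. In the 8 spots kept, its signal ran from 45.9 over a median of 52.7 to 63.2 in the FOXO1-Tg pool, and from 39.4 over a median of 45.1 to 56.0 in the wild-type pool. The ranges overlapped. The ratio of the mean signals was 0.09 on the log2 scale with a scanner error of 0.25, and the SD over the spots was 0.20, with 6 spots above 0 and 2 below 0. These are repeated spots on the same arrays, not replicate samples.

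The other 2 spots carried an outlier flag on the wild-type array and were left out. One had 45.9 in the FOXO1-Tg pool and 245 in the wild-type pool, and the other had 62.2 in FOXO1-Tg and 61.5 in wild-type. With both kept, the Pck2 ratio was -0.45, below 0. The log2 ratio of Pck1 was 2.06 above that of Pck2 (error 0.33), and 2.60 above it with the flagged spots kept.

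**Figure D2:**
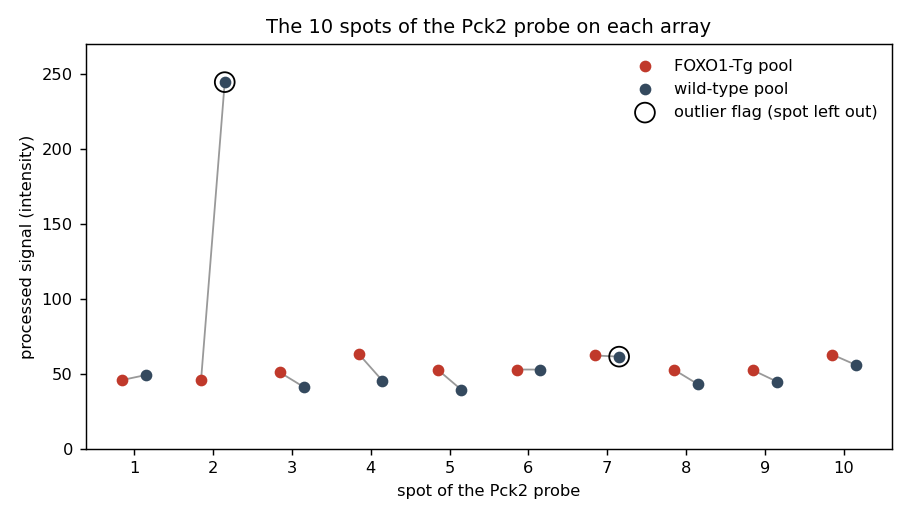
Processed signal (intensity) of the 10 spots of the Pck2 probe, in the FOXO1-Tg pool (left point of a pair) and the wild-type pool (right point), with rings around the 2 spots flagged on the wild-type array. The flagged spot at 245 stands far above the kept spots, which all lie between 39.4 and 63.2.

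Of the fructose bisphosphatase genes, Fbp2 was detected on both arrays and Fbp1 on 1. Fbp2 encodes the muscle enzyme, and its probe read 2017 in the FOXO1-Tg pool and 3770 in the wild-type pool. The log2 ratio was -1.03 with an error of 0.20, or 2.05-fold lower, and 364 of the 15492 genes had a lower ratio. The call depended on the scaling: Fbp2 was at -0.92 with scaling to the median, -0.90 with no scaling or the value table, -0.98 with loess and -0.99 with normexp correction, all within 2-fold, and at -1.01 with quantile normalization.

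Fbp1 encodes the liver enzyme and was near the detection limit. Its probe had 25.2 in the FOXO1-Tg pool, well above background, and 17.1 in the wild-type pool, not well above background, with the lowest well-above-background signal on that array at 17.5. Set against that lowest signal, the Fbp1 bound was at least 1.31-fold, or 0.39 on the log2 scale, and it was 1.15-fold with normexp correction. The measured log2 ratio was 0.43 with an error of 0.46. Bound and measured ratio were both smaller than the error, so no minimum difference was established for Fbp1.

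Pcx and G6pc3, at the entry and the exit of the path, were within 2-fold. Their ratios lay near the lower quartile of genes detected on both arrays, -0.29. Pcx, the biotin-dependent enzyme that makes oxaloacetate from pyruvate, had 14468 in the FOXO1-Tg pool and 15838 in the wild-type pool, a log2 ratio of -0.26 with an error of 0.20. G6pc3, the widely expressed glucose 6-phosphatase, had 19272 in FOXO1-Tg and 21634 in wild-type for its brighter probe and 11876 in FOXO1-Tg and 13489 in wild-type for the other. Its log2 ratios were -0.30 and -0.31, each with an error of 0.20. The ratios of Pcx and G6pc3 were below 0 in every setting, between -0.26 and -0.13 for Pcx and between -0.30 and -0.17 for G6pc3, and 4379 of the 15492 genes had a ratio below that of Pcx and 3826 had a ratio below that of G6pc3.

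**Figure D3:**
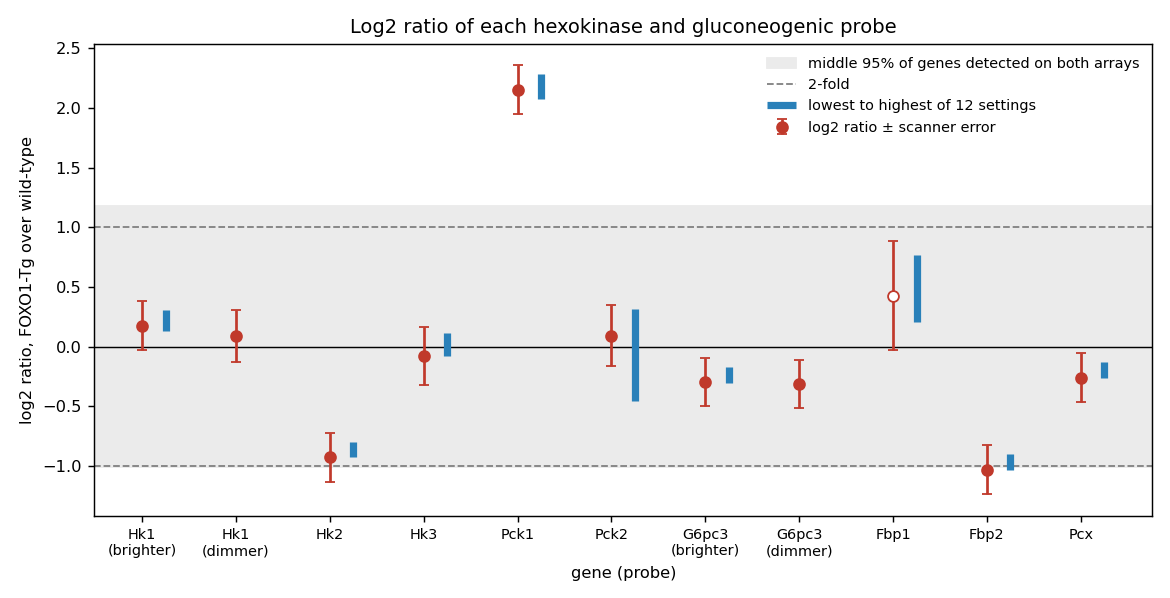
Log2 ratio, FOXO1-Tg over wild-type, of each of the 11 probes with the scanner error as the bar (1 array a group), the range over 12 settings for the probe that represents its gene (blue), the middle 95% of genes detected on both arrays (gray, -1.01 to 1.18) and 2-fold (dashed). Pck1 at 2.15 lies above the gray band, Fbp2 at -1.03 lies at its lower edge with settings on both sides of 2-fold, and the open point of Fbp1 is a probe detected in the FOXO1-Tg pool only.

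The genes closest to Pck1 in log2 ratio were Cd300e (2.16), Rufy4 (2.16), Alb (2.14), Zfp365 (2.13) and Mup19 (2.13). They were taken from genes detected on both arrays after a filter on names. It left out names with Rik, Gm, LOC or Olfr and names with capitals past the first letter. The likeness is in a single ratio over 2 arrays, and the scanner errors of these genes ran from 0.20 (Zfp365) to 0.35 (Rufy4), with 0.29 for Alb. Alb and Mup19 encode liver-secreted proteins, albumin and a major urinary protein. Alb read 166 in the FOXO1-Tg pool and 34.2 in the wild-type pool, and Mup19 had 407 in FOXO1-Tg and 84.8 in wild-type. Zfp365 had 1719 in FOXO1-Tg and 358 in wild-type, Cd300e 229 in FOXO1-Tg and 46.7 in wild-type, and Rufy4 92.1 in FOXO1-Tg and 18.9 in wild-type.

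Pck1 is expressed in fat, liver and kidney, and the markers of these tissues were read from the same arrays. All 10 adipocyte markers had ratios above 0 and 8 were more than 2-fold higher, with a median log2 ratio of 1.89 and a range from 0.76 (Lipe) to 2.88 (Cidea). Their summed signal was 307319 in the FOXO1-Tg pool and 103880 in the wild-type pool, and all 10 were detected on both arrays. Of 8 hepatocyte and kidney tubule markers, 5 were detected and went both ways, with a median of 0.31 and a range from -0.43 to 2.14 over the 4 on both arrays and a summed signal of 610 in FOXO1-Tg and 446 in wild-type. Alb was more than 2-fold higher, and Umod, a kidney tubule gene, was detected in the FOXO1-Tg pool only, with a bound of at least 2.05-fold and a measured log2 ratio of 3.04 (error 1.46). Tat had -0.43, Serpina1a 0.51 and Slc34a1 0.10, with -0.81 for a second Slc34a1 probe and a second Serpina1a probe detected in the wild-type pool only, while Apoa1, Ttr and Lrp2 were detected on neither array. The part of fat or other tissue in the Pck1 result was not tested.

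Slow fiber markers were lower. Of 8 slow fiber markers, 6 were lower past 2-fold in the FOXO1-Tg pool, with a median log2 ratio of -1.43, a range from -2.16 to -0.54 and a summed signal of 142865 in the FOXO1-Tg pool and 390294 in the wild-type pool. The 11 fast fiber markers had a median of -0.16 and a range from -0.86 to 0.11, with none past 2-fold. The part of fiber types in the ratios of Hk2 and Fbp2 was not tested.

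Markers of white blood cells, where Hk3 is expressed, had a median of 0.33 over the 10 of 12 detected on both arrays. The ratios ran from 0.07 (Itgam) to 1.55, with 1 of them (S100a8) more than 2-fold higher. Dimmer probes had -0.38 and -0.69 for Itgam, -0.02 and 0.05 for Csf1r and 0.11 for Adgre1. The summed signal of the 11 detected was 51448 in the FOXO1-Tg pool and 41118 in the wild-type pool. Of this, Itgam made up 33459 in FOXO1-Tg and 29067 in wild-type. Among the other lists, 4 of 8 Schwann cell and nerve markers were more than 2-fold higher, with a median of 0.90 and a range from 0.10 to 3.001. None of the other markers passed 2-fold: the fibroblast markers had a median of 0.57 (0.27 to 0.75), the endothelial markers -0.20 (-0.32 to 0.36) and the 3 blood markers detected -0.52 (-0.55 to -0.45).

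**Figure D4:**
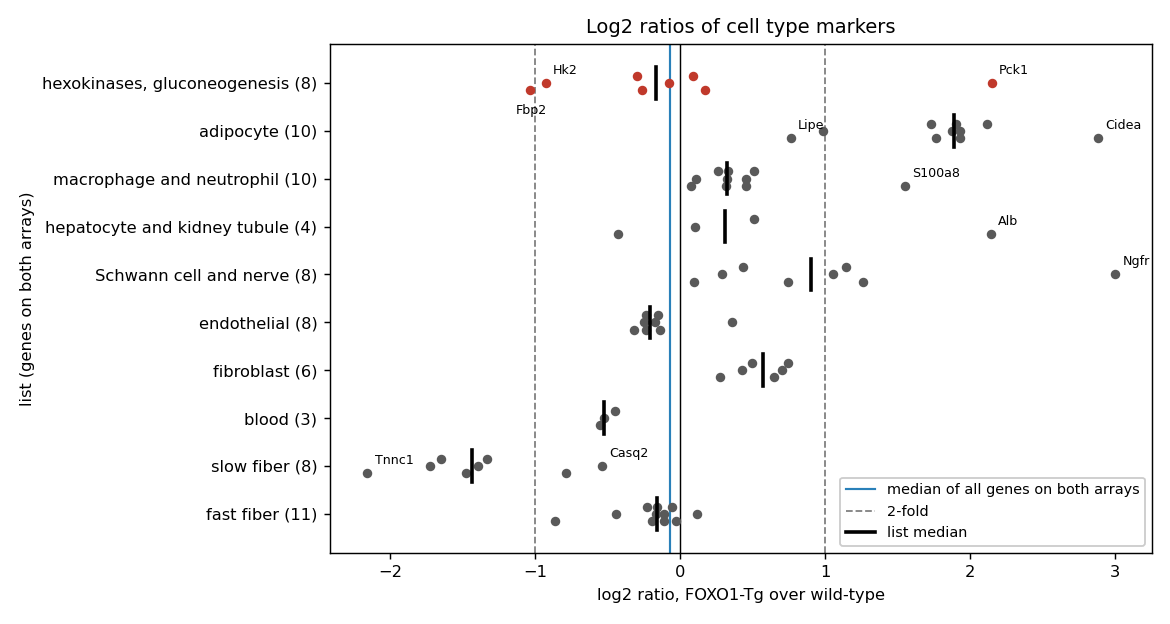
Log2 ratio, FOXO1-Tg over wild-type, of the genes of each marker list detected on both arrays (points, 1 array a group), with the list median (black), the median of all genes (blue) and 2-fold (dashed); the number of genes stands beside each list. Pck1 at 2.15 lies within the ranges of the adipocyte markers (0.76 to 2.88) and of the Schwann cell and nerve markers (0.10 to 3.001) and beside Alb (2.14). Hk2 (-0.93) and Fbp2 (-1.03) lie within the range of the slow fiber markers (-2.16 to -0.54). The lowest fast fiber marker, Casq1 at -0.86, differs from each of them by less than their scanner error of 0.20.

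The genes around the 9 enzymes were taken from 6 lists of 71 genes, of which 67 were detected and 65 were detected on both arrays. More than 2-fold higher were 2 of the 67, or 2.99%, beside 4.21% of all genes. The median over the 65 was -0.16, with 23 ratios above 0 and 42 below 0. Over all genes detected on both arrays the median was -0.07, and 58.3% of ratios were below 0.

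The 2 higher genes were regulators. Cebpa, a transcription factor of liver and fat that acts on Pck1, read 1261 in the FOXO1-Tg pool and 411 in the wild-type pool, a log2 ratio of 1.49. Pparg, the master regulator of adipocytes, had 3036 in FOXO1-Tg and 1364 in wild-type, a log2 ratio of 1.03 with an SD of 0.05 over its 10 spots. Over the 12 regulators detected on both arrays, the median was -0.04, with 6 above 0 and 6 below 0. Ppara, the fatty acid sensing receptor, was the lowest at -0.58, and none was more than 2-fold lower. Ppargc1a, the coactivator that drives Pck1 in liver, had 10174 in the FOXO1-Tg pool and 13850 in the wild-type pool, a log2 ratio of -0.57. Creb1 had -0.12 and its coactivator gene Crtc2 had -0.23, and a dimmer probe of each had -0.51. Hnf4a, a liver and kidney factor, was detected on neither array.

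Glycerol 3-phosphate is the product for which fat uses Pck1. The 11 genes of this branch had a median of -0.11, none past 2-fold in either direction, with 5 above 0 and 6 below 0. Agpat2, an acyltransferase of triglyceride synthesis, was highest at 0.59, with 6749 in the FOXO1-Tg pool and 4086 in the wild-type pool. Gk, the glycerol kinase gene, was lowest at -0.54 with 33.2 in FOXO1-Tg and 44.3 in wild-type.

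Upstream of glucose 6-phosphatase, the transporter gene Slc37a4, which carries glucose 6-phosphate into the endoplasmic reticulum, had 36026 in the FOXO1-Tg pool and 53782 in the wild-type pool, a log2 ratio of -0.71. It was the lowest of 9 detected genes of glucose 6-phosphate handling that are reported here, and Slc37a3 was the highest at 0.38 (983 in FOXO1-Tg and 691 in wild-type). Their median was -0.24. The liver-type glucose 6-phosphatase gene G6pc was dim on both arrays, with 23.4 in FOXO1-Tg and 23.3 in wild-type and a log2 ratio of -0.12 (error 0.35), and G6pc2 was detected on neither.

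At the step opposed by fructose bisphosphatase, the 8 genes had a median of 0.05, with 4 above 0, 4 below 0 and none past 2-fold. The bifunctional enzyme genes Pfkfb3 and Pfkfb4, which set the level of fructose 2,6-bisphosphate, an inhibitor of fructose bisphosphatase, stood at the ends of this list. Pfkfb3 had 96273 in the FOXO1-Tg pool and 53050 in the wild-type pool, a log2 ratio of 0.73, and 0.85 for its other probe. Pfkfb4 had 10400 in FOXO1-Tg and 16515 in wild-type, a log2 ratio of -0.80, and -1.49 for a dim second probe with 15.1 in FOXO1-Tg and 39.0 in wild-type.

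Among the 18 genes that supply pyruvate, lactate and other substrates, 17 were detected on both arrays. They had 4 ratios above 0, 13 below 0, a median of -0.24 and none past 2-fold, beside 58.3% of all genes below 0. Ldhb, the lactate dehydrogenase subunit of oxidative tissue, was lowest at -0.77, with 38991 in the FOXO1-Tg pool and 60657 in the wild-type pool. The dicarboxylate carrier gene Slc25a10 was highest at 0.81, with 78.4 in FOXO1-Tg and 40.9 in wild-type. The 8 partners of Pcx in biotin and acetyl-CoA metabolism had a median of -0.12, from -0.33 for Pcca, a biotin-dependent carboxylase gene, to 0.77 for Acaca, the acetyl-CoA carboxylase of fat synthesis. The Acaca value comes from its brightest probe, with 5943 in the FOXO1-Tg pool and 3179 in the wild-type pool, and its other probes had 0.08 and -0.78.

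**Figure D5:**
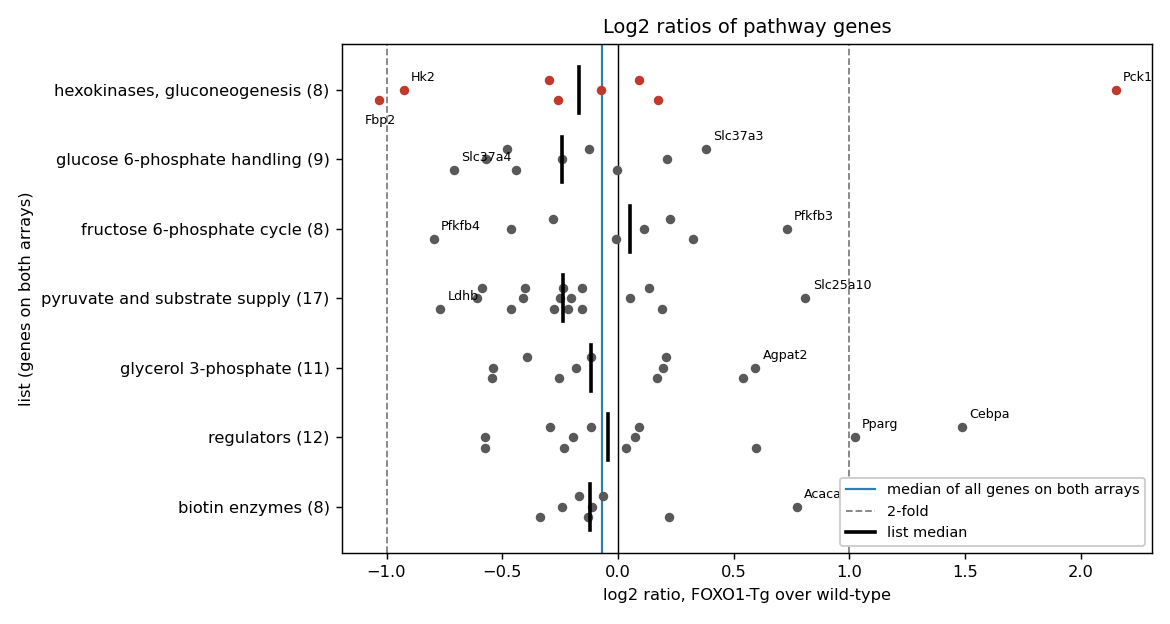
Log2 ratio, FOXO1-Tg over wild-type, of the hexokinase and gluconeogenic genes (red) and of the genes of 6 surrounding lists (gray) detected on both arrays, with list medians (black), the median of all genes (blue) and 2-fold (dashed). Pck1 at 2.15, Cebpa at 1.49 and Pparg at 1.03 lie right of the 2-fold line, and Fbp2 at -1.03 lies left of it.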

How the data were processed

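Each group had 1 pooled RNA sample, per the labels and the methods. The authors deposited an intensity for each spot, the background-subtracted processed signal of Agilent Feature Extraction, not scaled between the arrays. The software version is 11.0.1.1 in the headers of the files and 9.5 in the processing notes of the submitters. The value table held the same intensities (largest difference 0). Flags for outlier, saturated and well-above-background spots come from the same deposited files.

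Here, log2 signals were set relative to the 75th percentile of the 59305 non-control spots of an array. An outlier flag on either array removed a spot (237 in all), repeated spots were averaged, and the brightest probe that was detected stood for its gene. Of 55681 probes, 28331 were named by matching transcripts to a RefSeq gene table (GRCm38.p6). A probe detected on 1 array only gave a bound: its level on the other array was set to its own value there or to the dimmest signal well above background there, whichever was higher. The scanner errors of both signals were combined in quadrature. The number of arrays limits the precision. The procedure was checked on simulated arrays with planted changes well past 2-fold and noise below the scanner error. That check did not cover ratios near 2-fold.

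The genes and lists were chosen with earlier results of these data known. By rule, the text names every probe of the 9 genes. Of each list it names the genes past 2-fold and the highest and lowest detected member. The marker lists are given by counts, medians and ranges. The 5 genes closest to Pck1 are named after the filter on names. Ppargc1a, Creb1, Crtc2, G6pc and the genes named as undetected were added for their role after their values were seen. Of the genes of the lists, 1 is not reported here and is in no count. Alternatives covered other scalings (median, quantile, none, cyclic loess), normexp with an offset of 50 on median signals, the value table, filters, outlier spots, probe choice, a floor and other thresholds. Software was limma 3.58.1 in R 4.3.3, and pandas 2.3.3, numpy 2.4.6 and matplotlib 3.10.9 in Python 3.11.15.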

Additional observations from a re-analysis of the deposited data

How the results depend on the processing

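Of 195 values under alternatives, 182 moved by less than the scanner error, or by at most 1.5 times for counts. Many of the 195 could not move, so the tally does not measure stability. The value table repeats no scaling, and median scaling or no scaling leaves differences between genes unchanged. Filters, outlier spots, probe choice and a floor do not touch a bright gene with 1 probe and 1 spot. Among the 182, Hk3 changed sign in the 6 settings that did not scale to the 75th percentile. The count of the 9 genes past 2-fold lower was 0 with median scaling, no scaling, cyclic loess, normexp correction, the value table or a 3-fold threshold, and 2 with a 1.5-fold threshold, since Fbp2 and Hk2 lie near 2-fold. With outlier spots kept, Pck2 was -0.45 and Pck1 minus Pck2 was 2.60. Of the 67 pathway genes detected, 7 were higher and 5 lower at 1.5-fold, 0 were higher at 3-fold, and 1 was lower with the median over a gene's probes. No scaling moved the median of all genes by 0.13 and median scaling by 0.11, and with no filter on dim probes 37.0% of calls were higher. No paired analysis was possible because there was a single pool of each genotype. Signal over background limits Fbp1 (2.34 in the FOXO1-Tg pool and 2.03 in the wild-type pool), Pck2 (3.02 in FOXO1-Tg and 2.94 in wild-type) and Hk3 (4.08 in FOXO1-Tg and 3.96 in wild-type).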
